A study of Homo sapiens with 4 samples.

Results

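The 45 genes described here encode proteins of the large subunit of the cytosolic ribosome, RPL3 to RPL41 together with the stalk proteins RPLP0, RPLP1 and RPLP2. They were chosen by name out of 53617 genes in the deposited tables. The level of each gene was the sum over its transcripts that had not failed in the authors' quantification. All 45 genes passed a minimum mean of 1 FPKM in both comparisons, and none of their 414 transcripts had failed. FPKM is a read density per length of transcript and per size of library.

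The study asked how miR-23b acts in colon cancer cells and measured mRNA by sequencing in 4 libraries of HT29, an established human colon adenocarcinoma line. One library came from cells transfected with a miR-23b precursor, a synthetic RNA that raises the microRNA, and was set against a precursor control. Another came from cells transfected with an antimir, an oligonucleotide that blocks the microRNA, and was set against an antimir control. Per the labels, all 4 cultures were HT29 at passage 12 to 13, grown to 90% confluency in 5% serum and transfected at 50 nM with Lipofectamine 2000, a cationic lipid, with a change of medium at 24 h and RNA taken at 48 h. The agents in the 2 controls are not described beyond the word control. Each group held 1 library of 1 line, so no difference below has a replicate check and no test of a condition was possible. Read depth is unknown, because FPKM carries no counts. The 2 tables were normalised separately, and levels are compared only within a table unless stated.

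Of 10 colon epithelial markers, 8 were at 1 FPKM or more in all 4 libraries. CEACAM5 was below 1 FPKM in both libraries of the antimir table, and CDH17 was below 1 FPKM in all 4 libraries (both named after their values were seen). The summed epithelial markers were 11566 FPKM with the precursor against 10972 FPKM with its control, and 5125 FPKM with the antimir against 5295 FPKM with its control. Of 9 measured markers of blood, stroma, endothelium, liver, muscle and glia, none reached 1 FPKM in any library, and the highest was COL1A1 at 0.816 FPKM in the precursor library. Their sums were 1.28 FPKM with the precursor against 1.03 FPKM with its control, and 0.803 FPKM with the antimir against 0.973 FPKM with its control.

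The large subunit joins amino acids into protein. Its proteins fold around the ribosomal RNA, surround the tunnel through which the new chain leaves, hold the transfer RNAs, and form a flexible stalk that recruits the elongation factors. Ribosomal protein mRNAs are among the most abundant in dividing cells, and most begin with a cytosine followed by a run of pyrimidines, the 5′ terminal oligopyrimidine or TOP motif, through which mTOR signalling and LARP1 control their translation and stability.

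The microRNA itself, hsa-miR-23b-3p, lies on chr9:95085265-95085287 of GRCh38.p14, plus strand. Its RefSeq sequence is shown because the transfected agents raise or block it, with the seed, bases 2 to 8, in capitals.
hsa-miR-23b-3p: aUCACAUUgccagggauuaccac

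Start sites were read from RefSeq promoters on GRCh38.p14, which held 38 of the 45 genes. RPL5, RPL7, RPL8, RPL23, RPL23A, RPL30 and RPL37 had no entry. The windows below run from 15 bases before the annotated start through the first 15 transcribed bases, with the longest run of C and T in capitals. The first 5 belong to genes with among the lowest differences in the antimir comparison or the highest in the precursor comparison, and the last 3 to the genes closest to or above 0 in the antimir comparison.
RPL3, chr22:39319609-39319638, minus strand: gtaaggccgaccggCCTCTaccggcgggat
RPL7A, chr9:133348203-133348232, plus strand: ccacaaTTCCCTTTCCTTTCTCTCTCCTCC
RPLP0, chr12:120201097-120201126, minus strand: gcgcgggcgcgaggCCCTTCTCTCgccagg
RPL28, chr19:55385917-55385946, plus strand: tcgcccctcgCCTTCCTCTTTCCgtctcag
RPLP2, chr11:809952-809981, plus strand: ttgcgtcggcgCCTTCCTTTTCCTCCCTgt
RPL39, chrX:119791616-119791645, minus strand: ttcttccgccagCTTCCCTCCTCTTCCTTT
RPL34, chr4:108620561-108620590, plus strand: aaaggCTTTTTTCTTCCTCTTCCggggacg
RPL35, chr9:124861943-124861972, minus strand: agccccgcctaCTTCCTCTTTCCCTCggag
All 8 windows have C as the first transcribed base. The run is 24 bases long in RPL7A, 18 in RPL39 and RPL34, 17 in RPLP2, 15 in RPL35, 13 in RPL28, 10 in RPLP0 and 5 in RPL3.

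Over the 38 genes with an entry, 28 (73.7%) held a run of at least 8 C or T in this window, against 13.4% of 27305 RefSeq promoters with a symbol. The first base was C in 27 of 38 (71.1%), against 15% of all promoters. In the 300-base promoter, read on both strands, the ETS motif CCGGAAG was found in 12 of 38 (31.6%, against 10.7% of all), the YY1 motif AAGATGGC in 4 (10.5%, against 3.03%) and the TATA motif TATAAA in 3 (7.89%, against 12.0%). These matches describe letters and are not binding sites.

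The large subunit mRNAs were abundant in every library. They lay between 790 FPKM (RPL15) and 7962 FPKM (RPL14) in the precursor library and between 733 FPKM (RPL15) and 7606 FPKM (RPL23) in its control, with medians of 2348 FPKM with the precursor against 2130 FPKM with its control. In the other table they lay between 293 FPKM (RPL15) and 3734 FPKM (RPL23) in the antimir library and between 353 FPKM (RPL15) and 4176 FPKM (RPL23) in its control, with medians of 1427 FPKM with the antimir against 1566 FPKM with its control. Together they held 4.57% of all FPKM with the precursor against 4.27% with its control, and 4.66% with the antimir against 5.12% with its control. None was among the 10 most abundant genes of either table. The difference in share depended on the denominator: it was 0.299 percentage points for precursor minus control, 0.895 without the 10 most abundant genes and 0.148 over nuclear protein-coding genes, and -0.466, -0.896 and -1.04 for antimir minus control. Most of the subunit's proteins are held in equal numbers by each ribosome, while their mRNA levels spanned about an order of magnitude in each library.

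**Figure D1:**
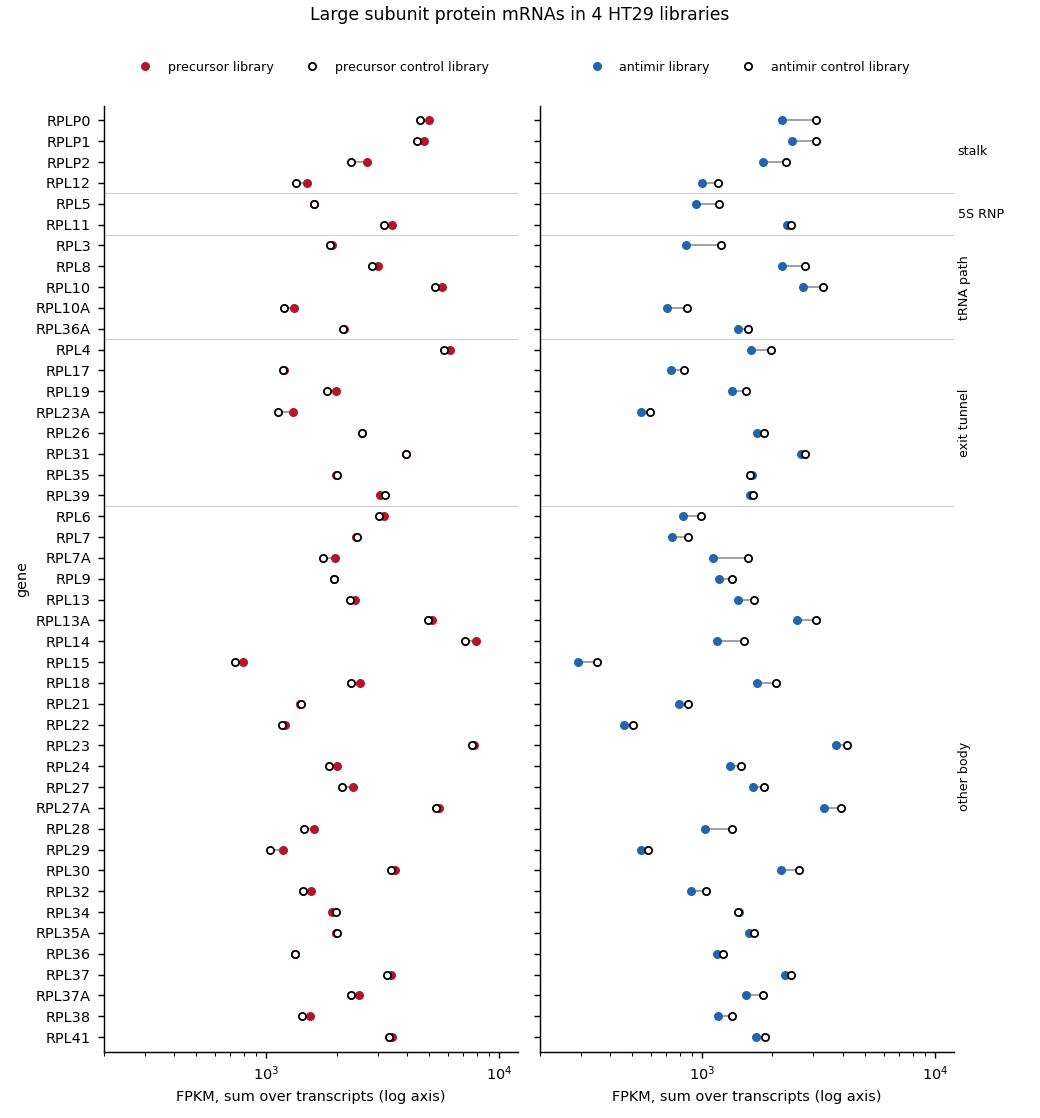
Level of each of the 45 large subunit mRNAs in FPKM on a log axis, with the precursor library (filled) and its control (open) in the left panel and the antimir library (filled) and its control (open) in the right, each point 1 library. In the left panel the 2 libraries nearly coincide for most genes, while in the right panel the filled points lie below the open ones for 43 genes.

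Differences between a treated library and its control were taken on the log2(FPKM + 1) scale and centred on the median of all genes past the filter, 0.02 in the precursor comparison (16982 genes) and -0.04 in the antimir comparison (14190 genes). At these levels the pseudocount has little weight. In bulk RNA, fewer cells of a kind and less RNA per cell cannot be told apart.

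In the antimir comparison, 43 of 45 large subunit mRNAs were lower than in the control relative to the median gene, against 50% of all genes by construction. The median difference was -0.16, with an SD of 0.12 over the 45 genes and a range from -0.46 to 0.07. No gene was lower or higher by 1.5-fold, a size that 2.90% of all genes passed downward and 5.07% upward. The differences were small and shared a direction, with 19 genes at -0.2 or lower and 5 within 0.05 of 0. Among nuclear protein-coding genes of at least 300 FPKM that encode no ribosomal protein, the median was -0.01 over 204 genes, with 108 below 0. Among those of at least 1000 FPKM it was -0.05 over 37 genes, with 26 below 0. The size of these differences relative to variation between cultures was not tested, because there was 1 library per group.

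In the precursor comparison, 32 of 45 large subunit mRNAs lay above 0 and 13 below, and the median difference was 0.06 with an SD of 0.07. No gene was 1.5-fold higher or lower, against 3.36% and 3.32% of all genes past that size upward and downward. The range ran from -0.09 for RPL39 to 0.20 for RPLP2. The median of the 350 nuclear protein-coding genes of at least 300 FPKM without ribosomal proteins was 0.04, with 224 above 0. That of the 64 at 1000 FPKM or more was 0.05, with 44 above 0. The value for the large subunit thus lay near that of other abundant mRNAs. Centred on abundant genes without ribosomal proteins (an alternative chosen after seeing the data), the precursor median of the 45 genes was 0.024 and 24 of 45 lay above 0.

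**Figure D2:**
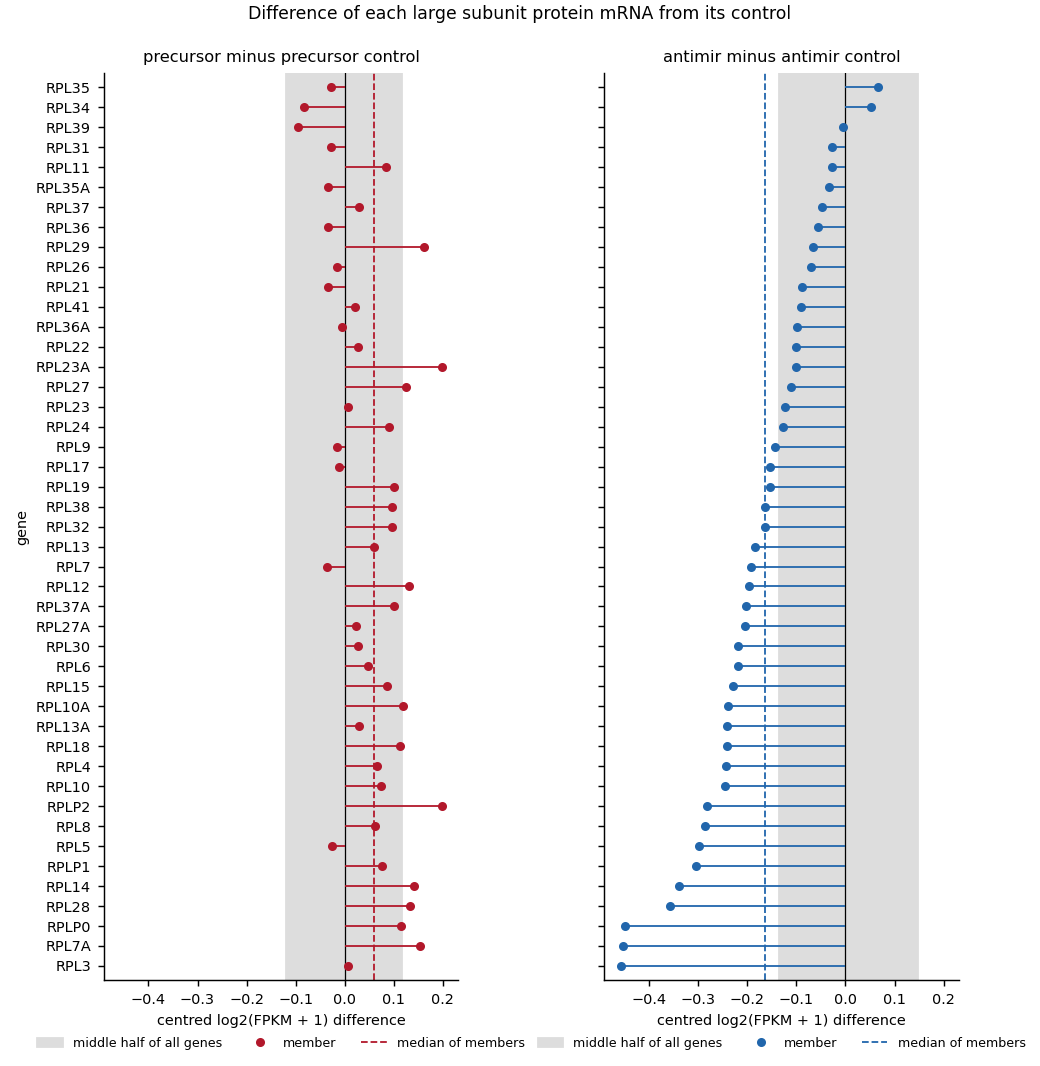
Centred log2(FPKM + 1) difference of each large subunit mRNA, precursor minus precursor control on the left and antimir minus antimir control on the right, with genes in the order of the antimir difference. The dashed line is the median of the 45 genes (0.06 and -0.16) and the grey band spans the quartiles of all genes past the filter, so that more than 20 genes lie left of the band in the right panel.

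The 4 stalk genes were all lower in the antimir library and all higher in the precursor library relative to the median gene, with medians of -0.29 and 0.12. RPLP0, the scaffold on which the stalk is built, was at 2194 FPKM with the antimir against 3075 FPKM with its control, a centred difference of -0.45 or a fold of 0.732. In the other table RPLP0 was at 4997 FPKM with the precursor against 4545 FPKM with its control, a difference of 0.11. RPLP0 lies at chr12:120634489-120639038 on hg19, as the authors' locus gives it, and its most abundant transcript in all 4 libraries was ENST00000551914.1, a 402-base protein-coding entry. RPLP1 and RPLP2 are the acidic proteins that pair on this scaffold and touch the elongation factors. RPLP1 was at 2420 FPKM with the antimir against 3068 FPKM with its control (-0.30), and at 4740 FPKM with the precursor against 4427 FPKM with its control (0.08). RPLP2 was at 1825 FPKM with the antimir against 2278 FPKM with its control (-0.28), and at 2700 FPKM with the precursor against 2316 FPKM with its control (0.20, the highest of the 45 genes). RPL12, at the foot of the stalk, was at 994 FPKM with the antimir against 1169 FPKM with its control (-0.20), and at 1492 FPKM with the precursor against 1341 FPKM with its control (0.13).

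RPL5 and RPL11 bind the 5S ribosomal RNA, and when assembly is disturbed the same complex binds MDM2, the ubiquitin ligase that holds p53 low. The pair differed from each other. RPL5 was at 937 FPKM with the antimir against 1183 FPKM with its control, a difference of -0.30. RPL11 was at 2306 FPKM with the antimir against 2413 FPKM with its control, a difference of -0.03. With the precursor, RPL5 was at 1595 FPKM against 1598 FPKM in the control (-0.02), and RPL11 at 3451 FPKM against 3204 FPKM in the control (0.08). The 14 genes of the p53 response list had an antimir median of 0.03, with 8 above 0, and a precursor median of 0.05, with 11 above 0. HT29 is known to carry mutant p53. The farthest member of that list was RRM2B, a ribonucleotide reductase subunit, at 21.0 FPKM with the antimir against 10.4 FPKM with its control (0.98).

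The 5 proteins along the path of the transfer RNAs had a median of -0.25 in the antimir comparison, with all 5 below 0, and 0.06 in the precursor comparison, with 4 of 5 above 0. RPL3, which reaches toward the peptidyl transferase centre, had the lowest antimir difference of the 45 genes. It was at 854 FPKM with the antimir against 1204 FPKM with its control (-0.46, a fold of 0.728), but at 1905 FPKM with the precursor against 1866 FPKM with its control (0.01). RPL3 lies at chr22:39708887-39716394 on hg19. RPL10 joins the subunit last, in the cytoplasm. It was at 2707 FPKM with the antimir against 3294 FPKM with its control (-0.25), and at 5679 FPKM with the precursor against 5314 FPKM with its control (0.07). RPL8, whose protein lies beside the peptidyl transferase centre, was at 2194 FPKM with the antimir against 2746 FPKM with its control (-0.29). RPL10A, the protein of the mobile stalk through which used transfer RNAs leave, was at 706 FPKM with the antimir against 855 FPKM with its control (-0.24). RPL36A, at the site where used transfer RNAs leave, was at 1424 FPKM with the antimir against 1565 FPKM with its control (-0.10).

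The 8 genes whose proteins line or surround the exit tunnel had the smallest median of the role groups in the antimir comparison, -0.09, with 7 of 8 below 0, and their precursor median was -0.01, with 3 of 8 above 0. RPL4, which forms part of the narrow point of the tunnel, was the lowest of them. It was at 1614 FPKM with the antimir against 1963 FPKM with its control (-0.24), and at 6155 FPKM with the precursor against 5787 FPKM with its control (0.07). RPL35, at the tunnel's mouth, was the highest of the 45 genes in the antimir comparison, at 1626 FPKM with the antimir against 1595 FPKM with its control (0.07). RPL39, a small protein of the tunnel wall, was at 1610 FPKM with the antimir against 1658 FPKM with its control (-0.0047). It was also the lowest gene of the precursor comparison, at 3079 FPKM with the precursor against 3237 FPKM with its control (-0.09). RPL23A, a docking site for the signal recognition particle, was at 1300 FPKM with the precursor against 1116 FPKM with its control (0.20), and at 543 FPKM with the antimir against 598 FPKM with its control (-0.10). RPL17, RPL19, RPL26 and RPL31 lay between -0.15 and -0.03 in the antimir comparison. No test of the groups against each other was made, since they hold between 2 and 26 genes of the same libraries.

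The other 26 genes encode proteins of the body and surface of the subunit, and 25 of them were below 0 in the antimir comparison (median -0.16), while 20 were above 0 in the precursor comparison (median 0.04). RPL7A, whose introns carry small nucleolar RNAs, was at 1114 FPKM with the antimir against 1566 FPKM with its control (-0.45, a fold of 0.731). In the other table RPL7A was at 1973 FPKM with the precursor against 1747 FPKM with its control (0.15). RPL7A lies at chr9:136215069-136218281 on hg19. RPL28 was at 1021 FPKM with the antimir against 1344 FPKM with its control (-0.36), and at 1607 FPKM with the precursor against 1443 FPKM with its control (0.13). RPL14 was at 1159 FPKM with the antimir against 1506 FPKM with its control (-0.34), and at 7962 FPKM with the precursor against 7110 FPKM with its control (0.14). These 3 genes were lower in the antimir library and higher in the precursor library than their controls.

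RPL34 was the only gene of the body group above 0 in the antimir comparison, at 1433 FPKM with the antimir against 1419 FPKM with its control (0.05). It lay near the low end of the precursor comparison, at 1912 FPKM with the precursor against 1995 FPKM with its control (-0.08). RPL29, a small basic protein also known to bind heparin, was at 1180 FPKM with the precursor against 1038 FPKM with its control (0.16), and at 544 FPKM with the antimir against 585 FPKM with its control (-0.07). RPL13A, which in human monocytic cells can leave the ribosome to silence inflammatory mRNAs, was at 2540 FPKM with the antimir against 3082 FPKM with its control (-0.24). RPL38, which in mice is needed for the translation of Hox mRNAs, was at 1167 FPKM with the antimir against 1343 FPKM with its control (-0.16). RPL41, the smallest protein of the subunit, was at 1700 FPKM with the antimir against 1859 FPKM with its control (-0.09). RPL15, the least abundant of the 45 mRNAs in all 4 libraries, was at 293 FPKM with the antimir against 353 FPKM with its control (-0.23). RPL23, the most abundant in the antimir table, was at 3734 FPKM with the antimir against 4176 FPKM with its control (-0.12).

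The 2 comparisons share no library. Of the 45 genes, 32 were above 0 in the precursor comparison and below 0 in the antimir comparison, 11 were below 0 in both, 2 were below 0 in the precursor and above 0 in the antimir comparison, and none was above 0 in both. Of all 13757 genes past both filters, 28.7% were above 0 in the precursor comparison and below 0 in the antimir comparison. The reverse held for 28.4% of them, while 2967 were below 0 in both and 2940 above 0 in both. With centring on abundant genes, 24 of the 45 genes were above 0 in the precursor and below 0 in the antimir comparison. Another 18 were below 0 in both. The shares over all genes were not computed under that centring. Across the 45 genes, the 2 differences had a Pearson r of -0.48 and a Spearman rho of -0.50, and across the 13757 genes 0.09 and -0.16. Across the 10970 protein-coding genes past both filters the values were -0.13 and -0.19. These describe genes of the same 4 libraries, which are not independent replicates, so no p is given. RPL34 and RPL35, the only genes above 0 in the antimir comparison, were both below 0 in the precursor comparison.

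**Figure D3:**
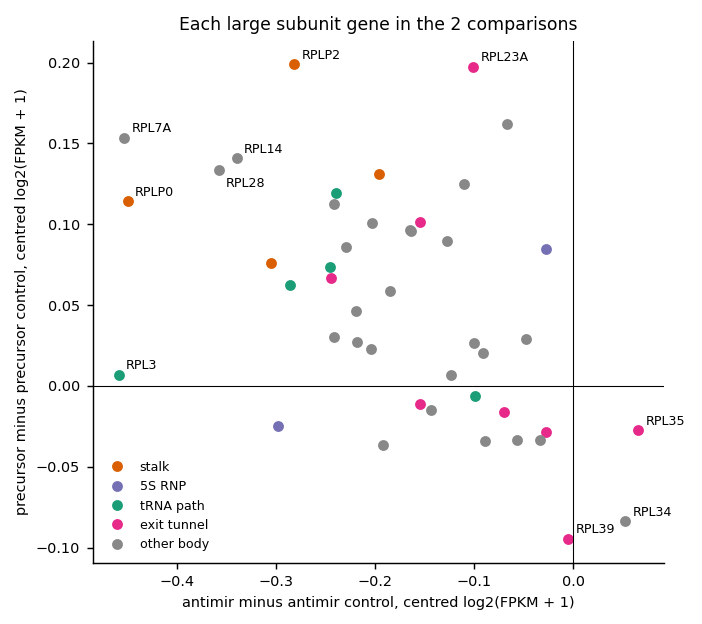
Centred log2(FPKM + 1) difference of each of the 45 genes, antimir minus antimir control on the horizontal axis and precursor minus precursor control on the vertical axis, coloured by role. Most points lie in the upper left, with RPL7A, RPLP0 and RPLP2 far from both axes, RPL3 at 0.01 on the vertical axis, and RPL34 and RPL35 alone in the lower right.

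The longest run of C and T in the window was set beside the differences only by a split at 8 bases. Whether run length orders the genes by size of difference was not tested. The run was counted anywhere in the window. Among runs of at least 8, those of RPL17 and RPL19 lay wholly before the start. The shorter runs of RPL6, RPL10, RPL11 and RPL13 also lay wholly before the start. The run is therefore not the TOP motif itself, whose relation to the differences was not tested. The 28 genes with a run of at least 8 had an antimir median of -0.15, with 26 below 0, and the 10 genes with a shorter run had -0.19, with all 10 below 0. RPL3 with its run of 5 and RPL7A with its run of 24, both printed above, had differences of -0.46 and -0.45. RPL34, RPL35 and RPL39, at 0.05, 0.07 and -0.0047, had runs of 15 to 18. In the precursor comparison the medians were 0.05 for the longer runs and 0.08 for the shorter.

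Genes around the ribosome were read from lists chosen by function. The small subunit proteins resembled those of the large subunit in direction: in the antimir comparison 31 of 31 were below 0 with a median of -0.19, and in the precursor comparison 25 of 32 were above 0 with a median of 0.06. RPS16 was at 1505 FPKM with the antimir against 2049 FPKM with its control (-0.41), and at 2645 FPKM with the precursor against 2266 FPKM with its control (0.20). Translation factors and other genes with TOP mRNAs were below 0 in 15 of 15 cases in the antimir comparison, with a median of -0.34, and above 0 in 11 of 15 in the precursor comparison, with a median of 0.06. PABPC1, the poly(A)-binding protein, was at 1586 FPKM with the antimir against 2267 FPKM with its control (-0.48), and at 3606 FPKM with the precursor against 3110 FPKM with its control (0.19). EIF4B, an initiation factor, was at 104 FPKM with the antimir against 155 FPKM with its control (-0.53). EEF1G, a subunit of an elongation factor, was at 1025 FPKM with the antimir against 1493 FPKM with its control (-0.50).

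The factors that build the large subunit did not share that direction. Of 34 measured assembly factors, 19 were below 0 in the antimir comparison and the median was -0.01, while in the precursor comparison 26 of 35 were below 0 and the median was -0.05. BRIX1, an assembly factor of the large subunit, was at 72.4 FPKM with the antimir against 59.8 FPKM with its control (0.31). NOP2, a methyltransferase of the large subunit's RNA, was at 50.3 FPKM with the precursor against 58.2 FPKM with its control (-0.23). Genes of ribosomal RNA synthesis and the nucleolus had medians of -0.06 in the antimir comparison (17 of 27 below 0) and -0.03 in the precursor comparison (17 of 28 below 0). POLR1A, the largest subunit of RNA polymerase I, was at 19.4 FPKM with the antimir against 26.3 FPKM with its control (-0.38). Among paralogs and related genes the antimir median was 0.08 (6 genes) and the precursor median -0.09 (7 genes). RPL22L1, the paralog of RPL22, was at 119 FPKM with the antimir against 95.9 FPKM with its control (0.35).

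**Figure D4:**
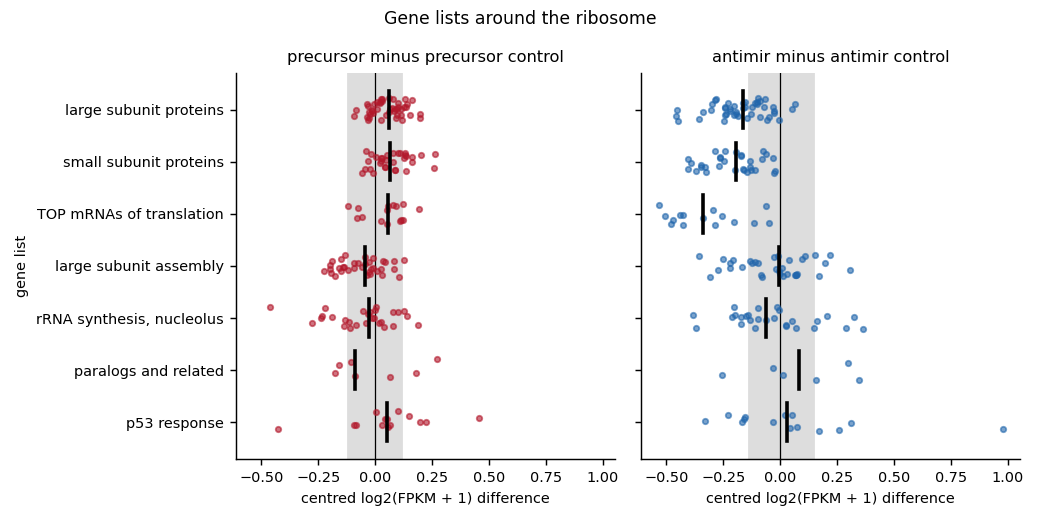
Centred log2(FPKM + 1) difference of the genes of each list, 1 point per gene, precursor minus precursor control on the left and antimir minus antimir control on the right, with a black bar at each median and a grey band over the quartiles of all genes. In the right panel the medians of the large subunit (-0.16), the small subunit (-0.19) and the TOP mRNAs (-0.34) lie left of 0, and that of the assembly factors lies at -0.01.

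The 414 transcripts of the 45 genes comprised 209 annotated as protein-coding, 119 with a retained intron, 43 processed transcripts, 25 with a nonsense-mediated decay annotation, 1 with a non-stop annotation and 17 not matched in GENCODE 29. Protein-coding transcripts held 76.3% of the genes' FPKM with the precursor against 76.5% with its control, and 81.3% with the antimir against 81.1% with its control. The same transcript was the most abundant one in the precursor library and its control for 45 of 45 genes, and in the antimir library and its control for 42 of 45. Across the 2 controls it was the same for 34 of 45, and across all 4 libraries for 32. Levels of single transcripts of one gene are estimates that divide shared reads, and short transcripts are weighted heavily in FPKM.

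RPL14 showed this weight. Its entry ENST00000461368.1, a processed transcript of 170 bases, was listed at 7069 FPKM with the precursor against 6305 FPKM with its control, and at 669 FPKM with the antimir against 911 FPKM with its control. Its protein-coding transcript ENST00000338970.6 was at 514 FPKM with the precursor against 465 FPKM with its control, and at 359 FPKM with the antimir against 487 FPKM with its control. Both entries were higher in the precursor library and lower in the antimir library than in the controls. The gene's first place in the precursor library rests on the short entry, which made up 88.8% of its FPKM there and 88.7% in the control. Transcripts under 300 bases held 10.4% of the 45 genes' FPKM with the precursor against 10.03% with its control, and 3.42% with the antimir against 3.86% with its control.

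RPL22, a surface protein that the ribosome can do without, had the largest shift between its own transcripts, picked out after the values were seen. ENST00000465387.1, of 508 bases, was at 111 FPKM with the antimir against 325 FPKM with its control, which is 24.2% and 64.2% of the gene. ENST00000471204.1, of 524 bases, was at 231 FPKM with the antimir against 41.8 FPKM with its control, which is 50.2% and 8.26% of the gene. The gene's sum was 460 FPKM with the antimir against 506 FPKM with its control (-0.10), so the 2 entries lay on opposite sides of 0 while the total was nearly level. With the precursor, the first entry was at 615 FPKM against 606 FPKM in the control and the second at 274 FPKM against 260 FPKM in the control. In the authors' deposited table, the antimir p-values of these entries were 0.0111 and 0.0123, and the q-values 0.687 and 0.732. They were the only 2 of 318 tested transcripts of the 45 genes with a p-value under 0.05 there (0.629%). Of all tested transcripts in that comparison, 3.89% had such a p-value.

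RPL4 also depended on which entries were counted. Protein-coding transcripts held 9.25% of its FPKM with the antimir against 15.7% with its control. Its most abundant entry there, ENST00000432669.1, which was not matched in GENCODE 29, was at 1114 FPKM with the antimir against 1278 FPKM with its control. In the precursor table the most abundant RPL4 entry was instead ENST00000563473.1, a 475-base processed transcript, at 1623 FPKM with the precursor against 1564 FPKM with its control.

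The calls in the authors' deposited tables compare 2 libraries and not 2 conditions, as no replicate entered them. In the authors' deposited table for the antimir, 0 of 318 tested transcripts of the 45 genes were called higher or lower, against 0.243% of all tested transcripts called higher, 0.171% lower and 0.414% either way. In the authors' deposited table for the precursor, 43 of 356 were called (12.1%), against 13.6% of all tested transcripts, a share near the background. Of these, 12 were called higher, where 6.91% of all transcripts were, and 31 lower, where 6.66% were. In the authors' deposited table the 5 called entries with the lowest differences were at 8.40 FPKM or less in both libraries. The most abundant called entry, named after its value was seen, was RPL29 ENST00000492277.1, a protein-coding transcript of 537 bases at 515 FPKM with the precursor against 377 FPKM with its control in the authors' deposited table (uncentred log2 difference 0.45, q-value 0.000898).

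The lowest was RPL30 ENST00000521112.1, a retained-intron entry at 1.81 FPKM with the precursor against 8.40 FPKM with its control in the authors' deposited table (uncentred log2 difference -1.74, q-value 1.40e-06). Next was RPLP2 ENST00000524867.1, also with a retained intron, at 1.87 FPKM with the precursor against 8.002 FPKM with its control (-1.65). The other 3 of the lowest were entries of RPL6 (-1.05), RPL10 (-0.89) and RPL8, whose retained-intron transcript ENST00000526668.1 was listed at 0 with the precursor against 0.755 FPKM with its control. Among the highest in the authors' deposited table, RPL30 ENST00000517489.1, again with a retained intron, was at 26.0 FPKM with the precursor against 14.4 FPKM with its control (0.81). The 2 retained-intron entries of RPL30 thus lay on opposite sides of 0. RPL29 ENST00000480306.1 was at 5.11 FPKM with the precursor against 1.804 FPKM with its control (1.12), RPL8 ENST00000528957.1 at 2.27 FPKM against 0.368 FPKM in the control (1.26), and RPL12 ENST00000536368.1 at 10.6 FPKM against 5.81 FPKM in the control (0.77). RPL36A ENST00000372849.4 was at 2.44 FPKM with the precursor, and its control was listed at 0. Called protein-coding entries of RPL29 lay on both sides of 0. ENST00000475248.1, of 551 bases, was at 121 FPKM with the precursor against 174 FPKM with its control (-0.52). The abundant entry ENST00000492277.1 named above was at 0.45.

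Counted entry by entry, retained-intron transcripts of the 45 genes lay more often below 0 in the precursor comparison and more often above 0 in the antimir comparison, while their summed FPKM had the direction of the gene sums. That sum was 3011 FPKM with the precursor against 2937 FPKM with its control, and 1130 FPKM with the antimir against 1336 FPKM with its control. In the precursor comparison 51 of the 69 past the filter (73.9%) were below 0, with a median of -0.19, where 61.2% of all retained-intron transcripts were below 0. In the antimir comparison 23 of 59 (39.0%) were below 0, with a median of 0.11, where 44.2% of all were, a share near the background. Protein-coding entries of the 45 genes were below 0 in 44.8% of cases in the precursor comparison and 77.7% in the antimir comparison, against 48.2% and 50.2% of all protein-coding transcripts.

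Each table also holds, for each gene, an entry that carries the gene identifier in place of a transcript, and no source used here says how it was made. For the 45 genes these entries were low, with medians of 0.744 FPKM with the precursor against 0.940 FPKM with its control, and 0.833 FPKM with the antimir against 0.748 FPKM with its control. In the precursor comparison 40 of 43 with a value were lower and 3 (RPL3, RPL14 and RPL37A) higher, against 75.3% of all such entries lower. In the antimir comparison 31 of 43 were higher and 12 lower, against 56.7% of all such entries higher. The entry of RPL10A was at 5.12 FPKM with the precursor against 6.75 FPKM with its control, and at 5.86 FPKM with the antimir against 5.54 FPKM with its control. The authors' deposited table for the precursor called 11 of 35 tested entries lower and 0 higher, where 30.2% of all tested entries were called lower and 0.600% higher. In the authors' deposited table for the antimir, 0 of 32 tested entries were called, against 0.127% of all called higher and 0.0212% lower. Most of these shares follow the direction of the table as a whole.

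**Figure D5:**
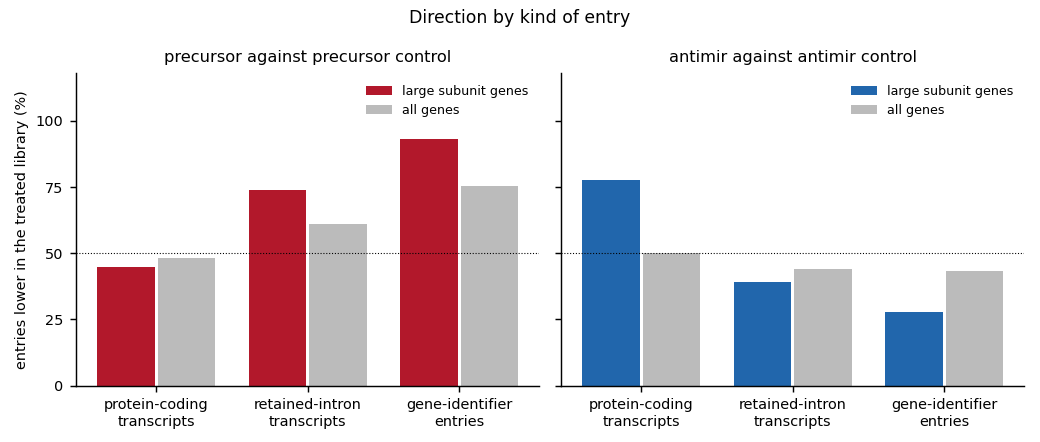
Share of entries on the lower side, in percent, for the 45 large subunit genes (coloured) and all genes (grey), by kind of entry. Precursor is on the left and antimir on the right. For transcripts it is the share below 0 after centring, at a mean of at least 1 FPKM. For gene-identifier entries it is the share lower than in the control, uncentred and with no FPKM filter, so the kinds were not measured alike. Protein-coding entries of the 45 genes were below 0 in 77.7% of cases in the antimir comparison. Their retained-intron entries were below 0 in 73.9% in the precursor comparison and 39.0% in the antimir comparison.

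Large subunit genes have many processed pseudogenes, whose sequences share reads with the parent, so levels of either are uncertain. For 42 of the 45 genes 260 pseudogenes were listed, with a summed 11150 FPKM with the precursor against 10893 FPKM with its control, which is 8.72% and 8.96% of the 45 genes' FPKM. In the other table the sum was 612 FPKM with the antimir against 731 FPKM with its control, or 0.898% and 0.924%. The single listed pseudogene of RPL41 was at 3155 FPKM with the precursor against 3234 FPKM with its control, and was listed at 0 in both libraries of the antimir table. The 8 pseudogenes of RPL13A summed to 1841 FPKM with the precursor against 1667 FPKM with its control, and to 90.9 FPKM with the antimir against 118.1 FPKM with its control.

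Differences between the 2 controls were more widely spread over these genes than those between a treated library and its control. Antimir control minus precursor control, centred on a median of -0.35 over 16154 genes, gave a median of -0.13 for the 45 genes with an SD of 0.46, against SDs of 0.07 and 0.12 within the tables. That median was -0.31 with FPKM weighted by transcript length, -0.37 from protein-coding transcripts alone and -0.31 from the most abundant transcript alone. RPL14 was the lowest at -1.89 and RPLP2 the highest at 0.32. Over all 16154 genes the SD of the difference between the controls was 1.57, wider than over the 45 genes. The tables were normalised separately, and the reason for the difference was not tested.

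A 7-base match to the miR-23b-3p seed, AATGTGA, lay in the longest GENCODE 29 3′ UTR of 7 of 45 genes (15.6%), against 18.4% of 19133 genes. The median UTR was 493 bases in the 45 genes and 1104 bases over all genes. The 7 genes were RPL10, RPL14, RPL18, RPL27A, RPL31, RPL37 and RPL37A, and RPL31 held 2 matches. The transcript that gave the RPL10 UTR, ENST00000344746, was listed at 0 FPKM in every library. That of RPL18, ENST00000549273, was at 0.241 FPKM with the precursor, 0.0288 FPKM with the antimir and 0 in both controls. The RPL14 UTR, from ENST00000338970, was 6355 bases long with its match at base 6022. Whether the authors' annotation held this UTR is unknown. The matches of the pair with the lowest antimir differences among the 7 are shown with 11 bases on either side, the match in capitals.
RPL14, 3′ UTR: ctggattgaagAATGTGAgtgtttgtatc
RPL10, 3′ UTR: tccaaaccataAATGTGAttatagttaac
In the precursor comparison RPL14, RPL18, RPL37A, RPL10, RPL37 and RPL27A lay between 0.02 and 0.14, and RPL31 at -0.03. In the antimir comparison all 7 lay between -0.34 and -0.03. RPL3, RPL7A and RPLP0, with the 3 lowest antimir differences, held no match. A match is a string of letters and not a measured site.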

How the data were processed

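Per the submitters' processing notes, the tools were bcl2fastq 1.8.3, TopHat2 2.0.11, Cufflinks 2.2.0 and Cuffdiff with the hg19 build; no source used here gives their order, settings or annotation. The deposited tables, 2 in number, hold the authors' FPKM per transcript, each for 1 treated library and the library named with a final N, taken as its control. Per the file headers, each table also holds the authors' p-value and q-value. Entries marked as failed were left out, and the FPKM of transcripts was summed per gene. Differences of log2(FPKM + 1) were centred on the median of genes with a mean of at least 1 FPKM (Python 3.11.15, pandas 2.3.3, numpy 2.4.6). This scale understates changes of low genes. The calculation was checked on simulated data with planted changes larger than any treated-minus-control difference of the 45 genes. The check therefore does not cover differences of the size reported here. GENCODE 29, built on another assembly, was matched by identifier only and gave types and lengths for 397 of 414 transcripts. UTRs were the longest 3′ UTR among the GENCODE 29 protein-coding transcripts of each of the 45 genes. Depth is unknown, so no counting interval is given.

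The genes and lists were chosen with earlier results of these data known. All 45 genes could be named, with at most 3 genes per list and comparison (largest absolute differences), the 5 highest and 5 lowest called transcripts, the most abundant transcript of a named gene, and pseudogenes of the 5 parents with the most pseudogene FPKM. Alternatives covered the pseudocount, filter, centring, transcript choice, length weighting and q-value threshold. Entries of RPL4, RPL14, RPL22 and RPL29 outside this rule were picked after their values were seen. PECAM1 was not analysed here, and 1 list gene is not reported here.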

Additional observations from a re-analysis of the deposited data

Results flagged for a closer look

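The 2 comparisons gave opposite signs for the following values, each from 1 library against 1 library, so the difference between the comparisons was not tested. The median of the 45 large subunit genes was 0.059 for precursor minus precursor control and -0.16 for antimir minus antimir control. RPL7A was at 0.15 in the precursor comparison and -0.45 in the antimir comparison, and RPLP2 at 0.20 in the precursor comparison and -0.28 in the antimir comparison. The gene-identifier entries of the 45 genes had medians of -0.18 in the precursor comparison and 0.075 in the antimir comparison, the reverse of the transcript sums. Such entries leaned the same way over all genes, with 75.3% lower in the precursor comparison and 56.7% higher in the antimir comparison.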

How the results depend on the processing

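Over 17 results and 120 alternatives, 106 values were counted as staying close, 14 moved and none reversed. Among those counted as close, the genes above 0 in the precursor comparison went from 32 to 24 of 45 with centring on abundant genes. The precursor median ranged from 0.02 to 0.08, the lowest with centring on abundant genes (0.024), and the antimir median from -0.20 to -0.14. The members' share of all FPKM differed by 0.299 percentage points (precursor) and -0.466 (antimir), by 0.895 and -0.896 without the 10 most abundant genes in the denominator, and by 0.148 and -1.04 over nuclear protein-coding genes. At a q-value of at most 0.01, 6 transcripts were called higher and 16 lower in the authors' deposited table for the precursor. From the most abundant transcript alone, 2 genes (RPL22 and RPL13A) were at least 1.5-fold lower in the antimir comparison, and from protein-coding transcripts alone 1 (RPL4) was, with 4 of 44 genes above 0. The antimir difference in protein-coding share was 0.179 percentage points, and 0.112 with transcripts of status OK alone. The median between controls was -0.31 with length weighting, -0.37 from protein-coding transcripts and -0.31 from the most abundant transcript. Length weighting, the minimum length of 300 bases, centring on abundant genes and all settings for the 2 controls were chosen after seeing the data. The causes were not tested. No paired analysis was possible because each group held 1 library and the replicate numbers only name libraries, and for the same reason no library could be left out.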
